A study of Arabidopsis thaliana with 6 samples.

Results

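Lipid-transfer-type proteins are small secreted plant proteins that share an eight-cysteine motif, in which disulfide bridges fold the chain around a cavity that can hold lipids. Hybrid proline-rich proteins carry this motif behind a proline-rich stretch that can sit in the cell wall, whereas DIR1-type proteins consist of little more than the motif. DIR1 and the hybrid proline-rich protein AZI1 are known in Arabidopsis for systemic acquired resistance, in which a signal from an infected leaf primes the rest of the plant.

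The members described are the loci of a list of 10 such genes that have a probe set naming 1 gene, and 6 of the 10 do. These are the hybrid proline-rich protein genes AT1G62510, AT4G12490, AT4G12500, AT1G12100 and AT2G45180 and the DIR1-type gene AT5G48490. DIR1 (AT5G48485), AZI1 (AT4G12470), EARLI1 (AT4G12480) and ELP (AT1G12090) have no probe set naming them alone in the annotation used and were not analysed here. The list was drawn up around AT1G62510 and AT5G48490, chosen by their difference between sdg2 and wild type, which was among the largest falls measured, and relatives were set beside them. The difference between the genotypes therefore belongs to the choice of the members, and it is given for them as a description. No p-value is printed for them. Their standard errors and intervals reflect the spread among the arrays and take no account of the choice. Calls on members are not read as tests.

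RNA was hybridised to 6 Affymetrix arrays, 3 from wild type and 3 from sdg2 mutant seedlings of Arabidopsis thaliana, all of accession Columbia (Col-0) and 10 days old. SDG2 is a methyltransferase that places trimethylation on lysine 4 of histone H3, and the labels give the genotype as an sdg2 mutation without naming the allele. Plates were kept at 22 °C in light for 24 h per day, with no further treatment. The titles call the arrays of a genotype biological replicates, and nothing says that they came from separate cultures, so each p-value speaks only for the spread among these arrays, part of which may be technical. Whole seedlings were sampled, so fewer cells of a type and less RNA per cell cannot be told apart in any result.

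Values are log2 GCRMA values, and each member is measured by 1 probe set. Unexpressed probe sets gather at a lower mode, which lay at 2.17 to 2.19 on the 6 arrays. Arrays correlated at 0.997 to 0.998 within a genotype and at 0.970 to 0.971 between genotypes, and no array stood apart. Levels of different probe sets cannot be set against each other, so genes are compared below by their differences. Summed marker signals are an exception, since they add different probe sets, and each is set only against the same sum in the other genotype. Over all 22746 probe sets tested, 36.6% were called changed in limma at an adjusted p below 0.05, 17.6% lower and 19.0% higher in sdg2, and the median difference was -0.01.

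Among the measured members, 3 were lower and 2 higher in sdg2, each by at least 2-fold, and 1 was near background in both genotypes. AT1G62510 and AT5G48490 fell furthest, and AT4G12490 and AT4G12500, close together in a run of related genes, rose. Limma called 5 of the 6, beside 36.6% of all probe sets, and the groups did not overlap in the same number, beside 48.3% of all probe sets. At 2-fold or more the background was 5.51% lower and 5.06% higher. Nothing is read from these member counts, since the choice of members used this contrast. The median difference of the 6 was -0.38, between extremes of -4.48 and 3.84.

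The log2 values of AT1G62510, a hybrid proline-rich protein gene, were 11.06, 11.10 and 11.07 in wild type and 6.78, 6.53 and 6.50 in sdg2. All 3 mutant arrays lay far below all wild type arrays, with a gap of 4.28 between the nearest of them. The difference was -4.48 ± 0.08 on the log2 scale (SE, n = 3 per genotype), a 22.3-fold fall and the 9th largest among all probe sets. Its mutant values stayed well above the lower mode, so the fold is not set by background. The 95% confidence interval of the difference was -4.68 to -4.27, and the SD over the arrays was 0.018 in wild type and 0.15 in sdg2.

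AT5G48490 is the DIR1-type gene that stands next to DIR1 in the gene order of chromosome 5. Its values were 12.31, 12.34 and 12.08 in wild type and 8.36, 8.22 and 8.03 in sdg2. The groups were 3.72 apart at their nearest arrays, and the mutant values again lay well above the lower mode. The difference was -4.04 ± 0.11 (SE, n = 3 per genotype), a 16.4-fold fall and the 20th largest. The 95% confidence interval of the difference was -4.32 to -3.75.

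AT2G45180, a hybrid proline-rich protein gene known in Arabidopsis for a part in resistance to pathogens, was bright in both genotypes. Its values were 13.44, 13.51 and 13.61 in wild type and 12.52, 12.47 and 12.38 in sdg2. The 3 mutant arrays were all lower, with a gap of 0.92. The difference was -1.06 ± 0.06 (SE, n = 3 per genotype), a 2.09-fold fall, with an interval from -1.22 to -0.91. With quantile normalization it was -0.99, just short of 2-fold.

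AT4G12490 and AT4G12500 belong to the run of hybrid proline-rich protein genes on chromosome 4 that also holds AZI1 and EARLI1. The values of AT4G12490 were 4.06, 4.25 and 4.82 in wild type and 8.08, 8.39 and 8.20 in sdg2. Every mutant array was above every wild type array, by at least 3.26. The rise was 3.84 ± 0.22 (SE, n = 3 per genotype) or 14.4-fold, the 45th largest, and the SD was larger in wild type (0.39) than in sdg2 (0.15).

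The values of AT4G12500 were 3.59, 3.62 and 3.44 in wild type and 5.47, 5.59 and 5.49 in sdg2. The groups lay 1.85 apart. The rise was 1.96 ± 0.06 (SE, n = 3 per genotype) or 3.90-fold, with an interval from 1.81 to 2.12, and the interval for AT4G12490 was 3.30 to 4.39. The wild type values of both genes were dim, below 5 on every array, and a fold against so dim a value is less certain as a ratio of amounts. Whether either probe set also reads transcripts of the other gene or of AZI1 and EARLI1 was not tested.

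AT1G12100, next to ELP in the gene order of chromosome 1, had values of 2.32, 2.31 and 2.28 in wild type and 3.19, 2.32 and 2.30 in sdg2. All but sdg2 replicate 1 lay close to the lower mode, and the groups overlapped. The difference was 0.30 ± 0.26 (SE, n = 3 per genotype), with an interval from -0.36 to 0.97, and no change was detectable at this signal. Without sdg2 replicate 1 the difference was 0.01.

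**Figure D1:**
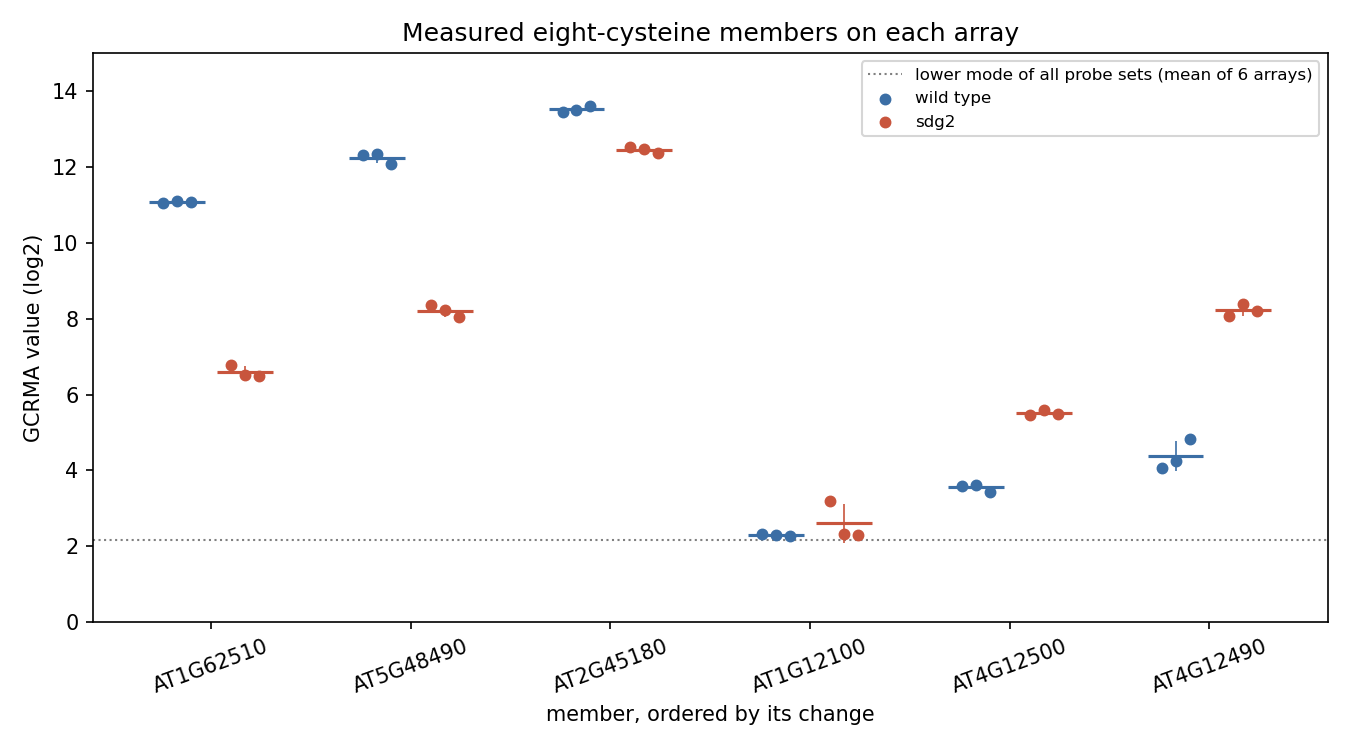
Log2 GCRMA value (vertical axis) of the 6 measured members on each of the 3 wild type (blue) and 3 sdg2 (red) arrays, with group means as horizontal and SDs as vertical bars and the lower mode as a dotted line. The groups are separate in 5 members, with AT1G62510 falling from 11.08 to 6.60 and AT4G12490 rising from 4.38 to 8.22, while AT1G12100 sits at the dotted line apart from 1 sdg2 array.

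The genes nearest to the members in the gene order of assembly TAIR10.1 were read next, taking the closest measured gene on each side. AT1G62500, directly before AT1G62510 and itself a hybrid proline-rich protein gene, fell by 1.12 ± 0.10 (adjusted p = 0.000748 in limma), from 7.43 ± 0.12 (SD, n = 3) to 6.31 ± 0.15. The interval of this fall was -1.37 to -0.87. On the other side AT1G62520, beyond 1 gene without a measurement, differed by 0.00, between -0.10 and 0.10.

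Beside AT5G48490, the gene directly after it, AT5G48500, fell by 0.43 ± 0.03 (adjusted p = 0.000207 in limma), while AT5G48480, on the far side of DIR1, differed by -0.06 and was not called. On chromosome 4, AT4G12490 and AT4G12500 are each other's nearest measured gene on 1 side. Further along, AT4G12530, also a gene of the family, was near the lower mode with 1.92 in wild type and 1.91 in sdg2. On the other side, beyond 10 genes without a measurement, SKU5, which encodes a glycosylated wall protein of directional root growth, fell by 0.92 ± 0.06 (adjusted p = 0.000349).

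Near AT1G12100, AT1G12080, the closest measured gene on the side of ELP, fell by 3.08 ± 0.09 (adjusted p = 2.99e-05 in limma), from 10.24 to 7.16, while AT1G12120 on the other side differed by -0.04 and was not called. Directly before AT2G45180, the autophagy gene ATG8E fell by 1.38 ± 0.05 (adjusted p = 6.26e-05), and AT2G45230 after it was near the lower mode. Falls were thus found beside members that fell, beyond ELP from AT1G12100, which was not called, and, in SKU5, on 1 side of the pair that rose. On the other sides AT1G62520, AT5G48480 and AT1G12120 were not called, nor were AT4G12530 and AT2G45230 near the lower mode. Over all probe sets 17.6% were called lower, and these few neighbours are given as a description.

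**Figure D2:**
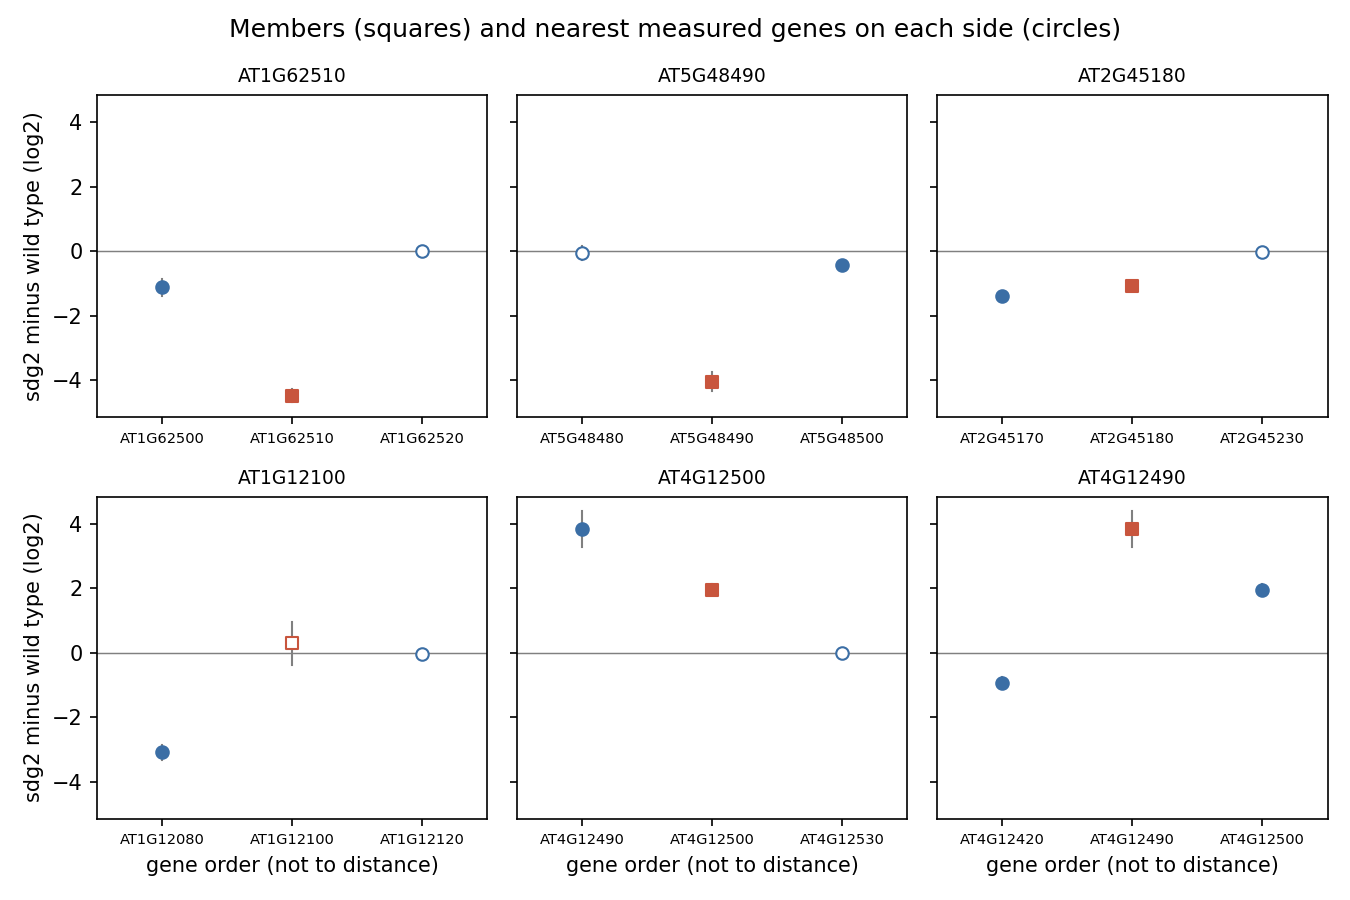
Difference between sdg2 and wild type (log2, vertical axis, with 95% confidence intervals) of each measured member (square) and of the nearest measured gene on each side in gene order (circles), with open symbols where limma made no call. AT1G62510 at -4.48 stands beside AT1G62500 at -1.12 and AT1G62520 at 0.00, and the rises of 3.84 and 1.96 in AT4G12490 and AT4G12500 stand side by side.

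Relatives outside the members were taken from a list of 61 genes by family class, of which 28 have a probe set naming them alone. The list was drawn up with earlier results of these data known, so its counts are a description. Of the 28, 13 were lower in sdg2, 4 were higher and 11 were not called. Over all probe sets 17.6% were lower and 19.0% higher, which is also the background to the class counts below. The share called was 60.7%, beside 36.6% of all probe sets and 31.9% of the 13286 genes read by their brightest probe set. The median difference was -0.18, against -0.01 over all those genes, and the range ran from -2.61 to 3.78. At 2-fold or more, 6 were lower and 2 higher, beside 5.51% and 5.06% of all probe sets. Of the 11 not called, 10 had means below 3 in both genotypes. A fall or a small rise in them could not have been read at this signal, and none rose clear of background. The other, AT4G22460, chosen after its values were seen, differed by -0.62 with an adjusted p = 0.0817 in limma. It was dim as well, with means of 3.16 in wild type and 2.54 in sdg2.

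Type 1 lipid transfer proteins are the classical secreted form, of which 12 were listed and 3 measured, and 2 of these fell. AT5G01870 was at 11.53, 11.30 and 11.41 in wild type and at 8.84, 8.62 and 8.94 in sdg2. This was a fall of 2.61 ± 0.11 (adjusted p = 6.57e-05 in limma) or 6.12-fold, the largest in the wider list. AT2G18370 fell by 1.79 ± 0.05 (adjusted p = 3.03e-05), from 9.21 ± 0.04 (SD, n = 3) to 7.42 ± 0.09. The remaining gene, AT2G15325, was at the lower mode in both genotypes. No rise was called among the 3, and 0 had one at an unadjusted p below 0.05.

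Of the 9 measured genes of lipid transfer proteins held to the membrane by a glycosylphosphatidylinositol (GPI) anchor, a class known for carrying wax lipids to the surface, 4 fell and 2 rose. AT3G58550 was at 9.82, 9.61 and 9.74 in wild type and at 7.38, 7.27 and 7.42 in sdg2. It fell by 2.36 ± 0.07 (adjusted p = 3.04e-05 in limma). AT5G13900 fell by 1.84 ± 0.22 (adjusted p = 0.00211), from 5.75 to 3.91. AT1G62790 rose by 0.52 ± 0.06 (adjusted p = 0.00193). The rise of AT2G27130 was 0.39 ± 0.10 (adjusted p = 0.0280). It no longer passed with unmoderated statistics (adjusted p = 0.0651), nor without any 1 of the wild type arrays, sdg2 replicate 1 or sdg2 replicate 3 (adjusted p of 0.0638 to 0.0859).

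Of the 11 measured genes listed as DIR1-like or type 2 lipid transfer proteins, 5 fell, 1 rose and 5 were not called. AT5G55450 was at 5.01, 4.93 and 5.80 in wild type and at 7.86, 8.13 and 8.02 in sdg2, so that all mutant arrays were higher. Its rise of 2.76 ± 0.26 (adjusted p = 0.000911 in limma), 6.77-fold, was opposite in direction to AT5G48490. AT1G48750 fell by 1.01 ± 0.06 (adjusted p = 0.000179) and AT5G05960 by 0.85 ± 0.05 (adjusted p = 0.000228), beside a difference of -4.04 in AT5G48490.

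Hybrid proline-rich protein genes beyond the members moved in both directions, with 5 of 15 measured, 1 higher, 2 lower and 2 not called. AT4G22470 was at 2.54, 2.53 and 2.47 in wild type, near the lower mode, and at 6.28, 6.51 and 6.09 in sdg2. It rose by 3.78 ± 0.11 (adjusted p = 2.99e-05 in limma), and its wild type level makes the fold no measured ratio. AT1G62500 is described above, and AT2G10940, whose wild type mean was 12.02, fell by 0.38 ± 0.05 (adjusted p = 0.00359).

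**Figure D3:**
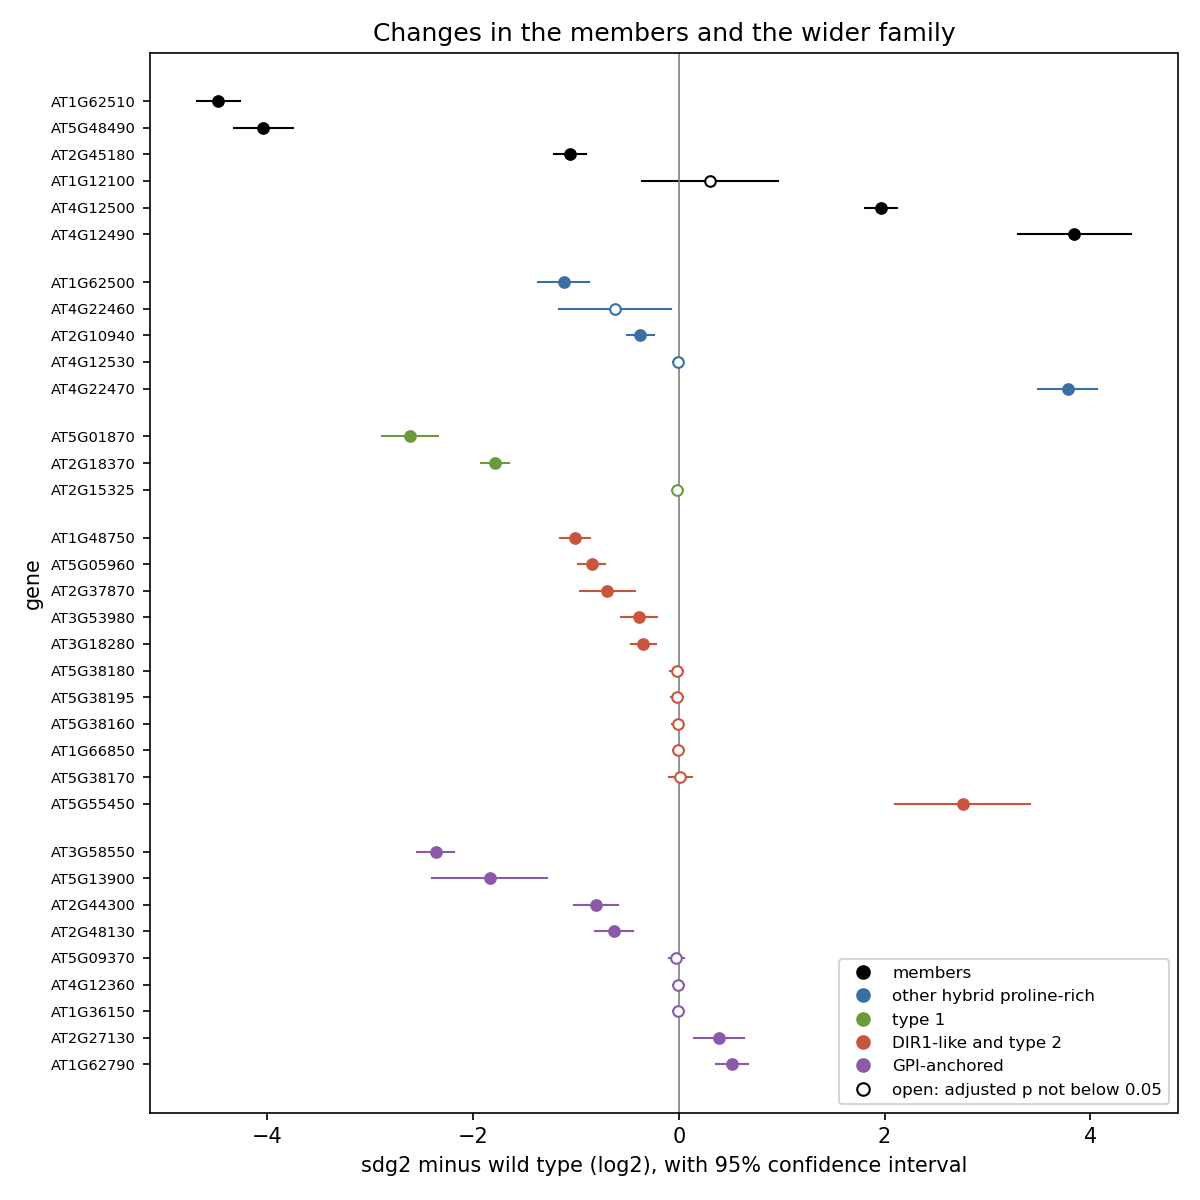
Difference between sdg2 and wild type (log2, horizontal axis, with 95% confidence intervals) for the 6 measured members (black) and 28 other genes of the family, coloured by class, with open symbols where the adjusted p was not below 0.05. The largest fall outside the members is AT5G01870 at -2.61 and the largest rise AT4G22470 at 3.78, and the open symbols other than AT1G12100 (0.30) and AT4G22460 (-0.62) gather at 0.

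Genes of systemic acquired resistance, the process for which DIR1 and AZI1 are known, were listed beside the family. Of 25 listed, 5 were measured: 3 were higher, 1 was lower and 1 was not called, with a median difference of 1.75. The gene not called, BSMT1, was near the lower mode, at 2.15 in wild type and 2.14 in sdg2. Over all probe sets 19.0% were called higher and 17.6% lower, and 5 genes are too few to read as a list. AT5G03350, a legume-lectin-type gene of this process, was at 4.87, 5.21 and 4.49 in wild type and at 8.50, 8.35 and 8.61 in sdg2. It rose by 3.63 ± 0.20 (adjusted p = 0.000160 in limma). AT5G52810, which encodes an enzyme of pipecolic acid synthesis, rose by 2.17 ± 0.11 (adjusted p = 0.000123), from 5.12 to 7.29. UGT76B1, whose product glucosylates isoleucic acid and dampens the response, fell by 0.78 ± 0.04 (adjusted p = 0.000106). Of 22 listed genes of cuticle lipid synthesis and export 1 was measured, WSD1, a wax ester synthase gene, with a difference of -0.09 that was not called. Its means of 2.84 in wild type and 2.75 in sdg2 were near background, so a fall or a small rise could not have been read at this signal.

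Tissue markers were read beside these results. The 3 measured leaf genes of 13 listed, RCA, LHCB4.1 and LHCB4.2, had means of 13.50 to 14.28 in both genotypes. LHCB4.2 was called lower, by 0.77, RCA and LHCB4.1 differed by 0.09 and 0.08 and were not called, and the summed linear signal of the 3 was 53241 to 57253 in wild type and 48556 to 49973 in sdg2. The 3 measured root genes of 12 listed were PYK10, EXPA7 and EXPA18. PYK10 and EXPA18 were called lower, each by 0.33, and EXPA7 differed by -0.75 and was not called. The summed linear signal of the 3 was 10415 to 12066 in wild type and 8397 to 9976 in sdg2, and 98.0% to 98.5% of it came from PYK10, so the sum shows little of the others. All of these markers were above the lower mode. The call for PYK10 was lost with quantile normalization and in 6 other settings. The falls of the called markers, 0.33 to 0.77, are of the size of the smaller falls in the wider family, such as the 0.38 of AT2G10940. RCA and LHCB4.1 did not fall. The part of such marker shifts in the results was not tested. None of the 5 listed seed storage albumin genes, relatives with the same motif, has a probe set naming it alone, so seed tissue was not read.

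The patterns most like those of AT1G62510 and AT5G48490 were sought among all genes as the smallest root mean square difference of log2 values over the 6 arrays, each gene centred on its wild type mean. For AT1G62510 these were AT4G33666 (root mean square difference of 0.10), AT4G39675 (0.12) and AT3G29970 (0.13). The sdg2 values of AT3G29970 were below 3, near background, so its match rests on a difference that background limits. For AT5G48490 they were AT2G05540, a glycine-rich protein gene (0.20), SIS, a salt-induced gene (0.26), and AT5G35940, a jacalin-type lectin gene (0.27), whose sdg2 mean of 3.08 was also near background. With 2 groups of arrays this measure mainly reflects a fall of like size, and no gene of the family was among the nearest 3 of either.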

How the data were processed

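The authors deposited 1 table of log2 values with a column per array. Per the submitters' processing notes these come from GCRMA, which adjusts for background, equalises the arrays' distributions and summarises probes; a version was not given in the sources used here. The method gives no presence call, and the number of arrays limits the precision. Of 22810 probe sets, 64 controls were left out. Of the 22746 tested, 13513 name 1 gene in the supplied platform annotation, 503 name several and 8730 are unlisted. Loci and gene order came from the RefSeq gene table of TAIR10.1.

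The genotypes were set against each other in limma 3.58.1 under R 4.3.3 (lmFit, eBayes, group means). Benjamini-Hochberg adjustment ran over the whole table, with calls at an adjusted p below 0.05. The fit was tested on simulated data. The brightest probe set stood for a gene. Named genes were all members, up to 5 rises and 5 falls in the wider family with separate groups and a brighter mean of at least 6, up to 2 each way per list (all of a list with at most 3 measured), nearest neighbours and nearest patterns. The members and lists were chosen with earlier results of these data known. The wider family was planned by protein motif, and was taken by locus as no protein table was used here. Figures were drawn with matplotlib 3.10.9.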

Additional observations from a re-analysis of the deposited data

How the results depend on the processing

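Of the 6 members, chosen on this contrast, 5 were called under each of the 15 alternatives, which is a description of the values: quantile normalization, a replicate block, centring on the median, a filter for values of 5 or more on at least 3 arrays (which drops AT1G12100), eBayes with trend and robust, unmoderated statistics, array weights, a table of probe sets naming 1 gene, a gene's mean over its probe sets, and each array left out. The wider family gave 16 to 18 calls. Nothing says that the replicate numbers pair the samples. Deviations of equally numbered arrays correlated at -0.008, 0.07 and 0.06, and those of unequally numbered arrays at -0.08 to 0.01. With 3 centred arrays per genotype these values cannot decide whether the samples are paired. With the replicate block 7865 probe sets were called against 8327, and 17 of the wider family. Leaving out 1 array gave 7368 to 7565. With only the 13513 probe sets naming 1 gene, a smaller table than the 22746 of the main fit, 4114 were called. That count cannot be set directly against 8327. More of the 4114 were lower (2155) than higher (1959). Median centring also turned the balance, to 4064 higher and 4374 lower. Differences near 0 of genes at the lower mode changed sign: with quantile normalization AT5G38160 (0.0042), AT4G12360 (0.0014) and AT1G36150 (0.0018), and AT5G38170 with median centring (-0.024) and with 1 array left out (from -0.024 to 0.0396, and -0.0034 without wild type replicate 3). AT4G22460 passed with array weights (adjusted p = 0.0380) and without wild type replicate 1 (0.0245). EXPA7 passed with the block, the filter, array weights and without wild type replicate 3 (0.0273 to 0.0363). Dim signal limits AT1G12100, AT4G22460, BSMT1, WSD1 and the 10 relatives below 3.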
